A study of Mus musculus with 2 samples.

Results

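The transcripts Stat4, Mtfr1, Fam205c, Spata1, Tpt1, Ghitm, Skp2, Usp1, Usp16 and Cfl2 were chosen because their level in Sd10, the last cluster of elongating spermatids, was higher in Tex13a knockout (KO) than in wild-type (WT) mice. The choice had been made on these same cells. The transcripts were followed over all 13 germ cell clusters of both libraries. The gene list had 25065 symbols, of which 5476 could be assigned to 1 row of the count matrix, and 10 of 10 members of the set were among these. Because the level in Sd10 chose the set, every KO to WT value in Sd10 is given as a description and supports nothing by itself.

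The data are single-cell RNA-seq of collagenase-digested testes of male C57BL/6 mice aged 10 to 12 weeks. WT mice carried Tex13a, and in KO mice the reading frames of this X-linked gene had been deleted with CRISPR/Cas9. Each genotype gave 1 library, for which 1 testis from each of 3 mice was pooled, so that single animals cannot be separated. The deletion was present in all cells of the KO mice. The effect of genotype and that of the library cannot be told apart.

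Transcription stops when the spermatid nucleus condenses, so that elongating spermatids live on messenger RNAs made earlier, which are stored, translated on schedule and then degraded. Shortening of the poly(A) tail by the CCR4-NOT deadenylase is a main entry into this decay. Tex13a is a germ cell protein whose zf-RanBP2 zinc finger is reported to bind the single-stranded RNA motif AGGUAA.

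The members were therefore searched for that motif, written as AGGTAA on the sense strand, in the longest coding transcript of each gene in GENCODE vM21 (build GRCm38, the same as mm10). The 5 matches are shown with 8 bases on either side because they are the only places in these transcripts where the letters of the reported motif occur, and capitals mark the motif. The matches lie at chr3:146485813-146485834 (minus strand, 3′ UTR of Spata1), chr12:54859173-54859194 (minus strand, 3′ UTR of Cfl2), chr4:98934302-98934323 and chr4:98934700-98934721 (plus strand, coding sequence in exon 9 of Usp1), and chr16:87461994-87462015 (plus strand, coding sequence in exon 3 of Usp16).
Spata1 3′ UTR: ccaatcagAGGTAAtggaaaac
Cfl2 3′ UTR: tttctaaaAGGTAAagggtgac
Usp1 coding sequence, upstream match: tgtgaactAGGTAAgccagagc
Usp1 coding sequence, downstream match: cgattctgAGGTAAaagtgaca
Usp16 coding sequence: ttggaacaAGGTAAtttgaaaa

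The motif was thus in the 3′ UTR of 2 of 10 members, beside 21.1% of the 3′ UTRs of 20969 genes, and in the coding sequence of 2 of 10, beside 11.4% of 21901 coding sequences. Per kilobase of 3′ UTR there were 0.132 motifs in the members and 0.206 in all genes. The Spata1 match was present in 1 of 5 annotated coding transcripts of the gene, and the Cfl2 match in 1 of 1. Stat4, Mtfr1, Fam205c, Tpt1, Ghitm and Skp2 had no match in the coding sequence or in either UTR of the transcript searched. Among genes with a 3′ UTR of similar length, within 20%, the share with a match was 63.0% for the length of Skp2 and 2.68% for the length of Stat4. A match is a run of letters and not a binding site, and no match says only that these letters are not in that transcript.

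Unique molecular identifiers (UMIs, each standing for 1 captured mRNA molecule) numbered 45568532 over 5170 cells in WT and 67734689 over 7238 cells in KO, with no cell barcode shared. Sd10 had 184 WT and 278 KO cells, with a median of 5271 and 5287 UMIs per cell and a median of 0.491% and 0.686% mitochondrial UMIs. The 6 stage markers of Sd10 (Car2, Oaz3, Tppp2, Spata3, Dnajb8 and Gapdhs) had their highest level there in both libraries. Somatic markers gave few UMIs in Sd10, except 74 macrophage UMIs in 1 WT cell, but no Sertoli or endothelial marker could be assigned to 1 row. Tex13a itself had 7 possible rows, of which 1 held 2295 WT and no KO UMIs. Since that row would be picked by its absence in KO, it is no check of the labels.

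Levels are CPM, the UMIs of a gene summed over the cells of a cluster and scaled to the same total UMI number in every cluster. A ratio is the log2 of KO over WT. All 95% intervals (exact Poisson for levels, exact binomial for shares and ratios) cover counting error only, not the spread between animals, and no p-value can be given. Those of levels and ratios use UMIs summed over cells and also leave out the spread between cells. An interval also leaves 0 more easily for a gene with many UMIs. The shares of genes with such an interval are over genes with at least 10 UMIs and are not matched for UMI number. In Sd10 all 10 members were at least 1.5-fold higher in KO with an interval above 0, where 5.88% of 3674 genes read met this rule, which is the contrast that chose them. Their median log2 ratio was 1.13, beside 0.04 over all genes read. The members differed in size from 0.76 for Ghitm to 1.82 for Stat4.

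Stat4 (chr1:51987148-52107189, plus strand) encodes a transcription factor of interleukin-12 signalling. Its level was lowest in Sd1, with 9.08 CPM in WT and 13.7 in KO, and highest in Sd9, with 332 in WT and 511 in KO. In Sd10 it was 96.6 CPM (95% interval 80.1 to 115) in WT and 342 (315 to 371) in KO. Stat4 was the member with the widest gap between the libraries before Sd10. It was higher in KO in all 12 earlier clusters, by 0.38 to 0.78 on the log2 scale, and the interval was above 0 in 11 of these, all but Sc1, where 12.2% of all pairs of gene and earlier cluster had such an interval. An exon of Stat4 overlaps the span of the gene Gm28177 on the same strand. Exons of Gm28177 were not compared, and whether reads of the 2 genes were told apart was not tested.

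Mtfr1 and Ghitm act at mitochondria. Mtfr1 (chr3:19187327-19220817, plus strand), a regulator of mitochondrial fission, had 537 CPM in Sd9 and 224 (199 to 252) in Sd10 in WT. In KO it had 513 CPM in Sd9 and 494 (462 to 528) in Sd10, levels whose intervals overlap. None of the 12 earlier clusters had an interval of the Mtfr1 ratio apart from 0, and its ratios there lay between −0.07 and 0.12.

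Ghitm (chr14:37120092-37135272, minus strand), a protein of the inner mitochondrial membrane in the TMBIM family, had 1020 CPM in Sd9 and 766 (719 to 816) in Sd10 in WT. In KO it had 1055 CPM in Sd9 and 1302 (1249 to 1356) in Sd10, its highest level of all KO clusters. Before Sd10 the 2 libraries stayed close for Ghitm, with log2 ratios of −0.06 to 0.12.

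Skp2, Usp1 and Usp16 belong to the ubiquitin system. Skp2 (chr15:9111985-9155425, minus strand), the F-box protein by which an SCF ubiquitin ligase recognises its substrates, had under 15 CPM from Sc2 to Sd3 in both libraries. It was at 321 CPM in Sd9 and 173 (151 to 198) in Sd10 in WT. In KO it was at 304 CPM in Sd9 and 372 (344 to 401) in Sd10, which like that of Ghitm was the highest KO level. In Sd7 Skp2 was lower in KO, at 269 CPM in WT and 244 in KO.

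Usp1 (chr4:98923810-98935543, plus strand), a deubiquitinase of the DNA repair proteins FANCD2 and PCNA, had its highest level in Sd1, with 1193 CPM in WT and 1313 in KO. From Sd5 onwards it stayed at or below 77.0 CPM in WT. In Sd10 it had 56.7 CPM (44.3 to 71.5) in WT and 124 (108 to 141) in KO, which are 4.75% and 9.42% of its highest level. The interval of the Usp1 ratio was also above 0 in 9 of 12 earlier clusters, beside 12.2% of all pairs of gene and earlier cluster, and its largest earlier ratio was 0.74 in Sd7. From Sd6 to Sd8 Usp1 had 43.0 to 55.0 CPM in WT and 68.3 to 72.0 in KO. In Sd9 it had 75.6 CPM (65.4 to 86.9) in WT and 110 (97.3 to 123) in KO. The log2 change from Sd9 to Sd10 was −0.41 in WT, with an interval of −0.83 to −0.02. In KO it was 0.17, with an interval of −0.09 to 0.43. Markers of earlier stages differed between the libraries in Sd10 in both directions. Those of Sg (23.2 CPM in WT and 13.1 in KO), Sc1 (63.1 and 47.1) and Sc2 (8.78 and 3.97) were lower in KO. So were those of Sd5 to Sd6 (149 and 93.1) and of Sd7 to Sd9 (45781.5 and 37392). The readable marker of Sd3 to Sd4 had 13.6 and 15.3 CPM. The Sg values rest on 29 and 23 UMIs and the Sc2 values on 11 and 7. The 3 readable markers of Sd1, where Usp1 and Spata1 are high, together had 48.1 CPM in WT and 53.7 in KO in Sd9, and 28.7 in WT (36 UMIs) and 49.9 in KO (88 UMIs) in Sd10. The libraries also differed in their share of Sd1 cells, with 513 of 5170 cells in WT and 1057 of 7238 in KO. The part of RNA of Sd1 in the Sd10 values of Usp1 and Spata1 was not tested.

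Usp16 (chr16:87454703-87483517, plus strand) encodes a deubiquitinase of histone H2A. In WT it had 473 CPM in Sd3, 455 in Sd7, 244 in Sd9 and 133 (113 to 154) in Sd10, its lowest cluster. In KO it had 499, 496, 260 and 228 (206 to 251) CPM in the same clusters. An exon of Usp16 overlaps Cct8 on the opposite strand, and whether counting used strand is not stated in the sources used here.

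Cfl2 (chr12:54858809-54862877, minus strand), the actin-severing protein cofilin 2, was highest in the spermatocyte cluster Sc1, with 374 CPM in WT and 354 in KO. It had another rise around Sd6, with 261 and 263 CPM. In WT it was at 156 CPM in Sd9 and 64.7 (51.4 to 80.4) in Sd10, the lowest of the 13 clusters. In KO it was at 167 CPM in Sd9 and 170 (152 to 191) in Sd10, intervals that overlap. A noncoding gene on the opposite strand, 1700081N11Rik, overlaps a Cfl2 exon.

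Tpt1 (chr14:75845093-75848525, plus strand), the abundant growth-associated protein TCTP, had a lower level in KO in 11 of 12 clusters before Sd10, with an interval below 0 in 10 of these, beside 11.2% of all pairs of gene and earlier cluster, at log2 ratios down to −0.28. In Sd6, its highest cluster, it had 909 CPM in WT and 800 in KO. In Sd9 it had 410 CPM in WT and 396 in KO, a log2 ratio of −0.05 whose interval includes 0. In Sd10 it had 79.0 CPM (64.2 to 96.2) in WT and 176 (157 to 197) in KO, the lowest of the 13 clusters in each. The last 500 bases of Tpt1 match 3 annotated pseudogenes over at least 100 bases at 95% identity or more, so its counts are uncertain.

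Fam205c and Spata1 are genes of the male germ line. Fam205c (chr4:42868004-42874234, minus strand), of the Fam205 family, was highest in Sd7 in WT with 1126 CPM and in Sd8 in KO with 1258. In WT it had 1008 CPM in Sd9 and 275 (246 to 305) in Sd10. In KO it had 1182 CPM in Sd9 and 609 (573 to 646) in Sd10, so that the level fell away in both libraries and was at 24.4% of its highest value in WT and 48.4% in KO.

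Spata1 (chr3:146457196-146499753, minus strand), named for its association with spermatogenesis, was highest in Sd1 in WT with 1630 CPM and in Sd2 in KO with 1658. It dropped to 139 CPM in WT and 152 in KO in Sd5. In Sd9 it had 213 CPM in WT and 280 in KO, and in Sd10 164 (143 to 189) in WT and 340 (313 to 368) in KO. The annotated end of its longest coding transcript shares stretches of at least 100 bases with 9 other genes. That transcript ends in exon 5, 416 bases from the start of its motif match at chr3:146485813-146485834, well before the end of the gene. Other annotated ends of Spata1 were not searched for copies.

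**Figure D1:**
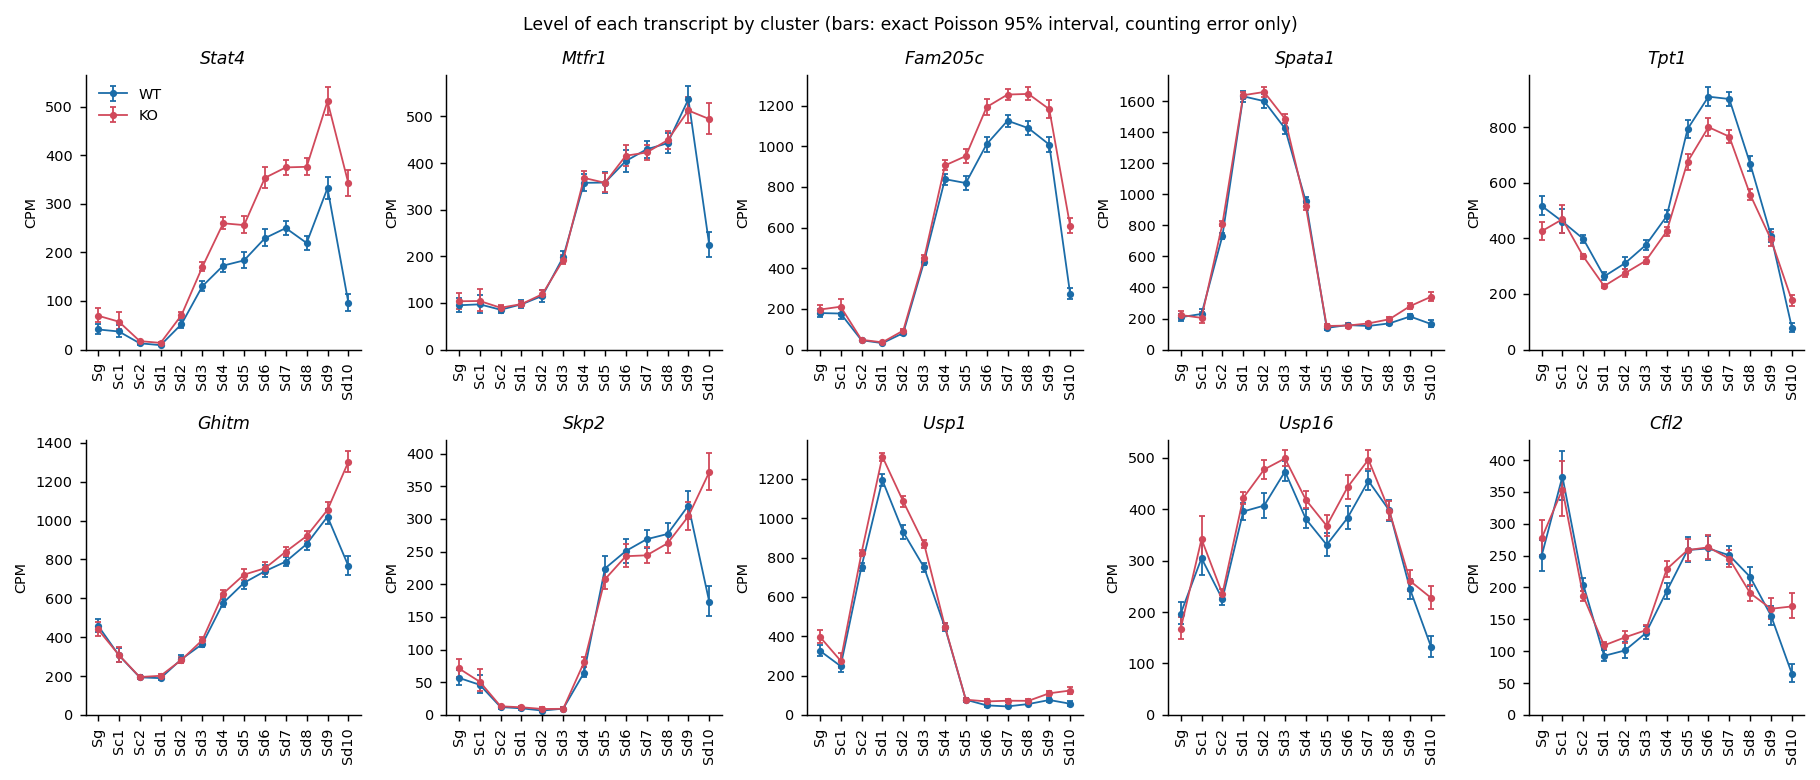
Level (CPM, linear axis from 0) of each of the 10 transcripts over the 13 clusters from spermatogonia (Sg) through spermatocytes (Sc1, Sc2) and spermatids (Sd1 to Sd10), WT in blue and KO in red, with exact Poisson 95% intervals for counting error. The lines run close together up to Sd9 for most members and part in Sd10, where Ghitm has 766 CPM in WT and 1302 in KO, while Stat4 is higher in KO and Tpt1 lower in KO in earlier clusters too.

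The courses fell into groups. In the 13 WT clusters the log2 levels of Stat4, Mtfr1, Fam205c, Ghitm and Skp2, which were low in early spermatids and high in late ones, had pairwise Pearson r of 0.76 to 0.97. Usp1 and Spata1, both highest around Sd1, had r = 0.91 with each other, and Usp1 had r = −0.96 with Skp2. Tpt1 and Cfl2 had r = 0.83. These are descriptions over 13 clusters that share a library and its depth. In Sg, before meiosis, Stat4 stood at 12.5% of its highest WT level, Fam205c at 16.0% and Skp2 at 17.7%. In the same WT cells the 7 markers of Sd7 to Sd9 stood at 9.95% (Spata19) to 13.5% (Prm1) of theirs. The 6 markers of Sd10 stood lower, at 6.35% (Dnajb8) to 8.19% (Spata3), and readable markers of Sd3 to Sd6 at 2.42% to 11.4%. The WT Sg level of Stat4 thus lay within the range of the Sd7 to Sd9 markers but above that of the Sd10 markers. In KO it was at 13.6%, beside 13.4% for Prm3, the highest of the Sd7 to Sd9 markers. Whether Stat4 is expressed in Sg was not tested. The WT Sg levels of Fam205c and Skp2 lay somewhat above the range of the Sd7 to Sd9 markers. How much free RNA of late spermatids adds to any of these levels was not tested.

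Before Sd10, the values of the members were not chosen by the rule, although they come from the same 2 libraries. In Sd9 the median log2 ratio of the 10 members was 0.10, beside 0.09 over 4310 genes read. Only Stat4 was at least 1.5-fold higher in KO with an interval above 0, 1 of 10, where 7.59% of genes met this rule. The interval was above 0 for 4 members, Stat4 (0.62), Usp1 (0.54), Spata1 (0.39) and Fam205c (0.23), beside 14.3% of genes. For Mtfr1, Tpt1, Ghitm, Skp2, Usp16 and Cfl2 it included 0, with ratios from −0.08 to 0.10. Ratios that are centred on the median of all genes put Ghitm at −0.04 instead of 0.05 in Sd9, and the others kept their sign.

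In the clusters from Sg to Sd8 the median ratio of the members was between 0.03 and 0.21. The 1.5-fold rule was met by 2.39% of all pairs of gene and cluster before Sd10. It was met by Stat4 in Sg, Sd1, Sd4, Sd6 and Sd8, where 2.23%, 1.01%, 1.19%, 2.72% and 3.3% of genes met it. In Sg the level of Stat4, as percent of its highest, is near that of the Sd7 to Sd9 markers, and in Sd1 it is the lowest of the 13 clusters. Whether the Stat4 ratios in Sg and Sd1 are a difference in expression there was not tested. The 1.5-fold rule was also met by Usp1 in Sd7, where 3.93% did, and by no member in the other clusters. Over the 120 pairs of member and cluster before Sd10 the interval was above 0 in 46 and below 0 in 13. Of all pairs of gene and earlier cluster, 12.2% and 11.2% had such intervals, but these shares are not matched to the members for UMI number. Some of the 46 ratios are small, as for Spata1 in Sd2, at 0.05 from 4378 WT and 9359 KO UMIs. After Stat4 in 11 and Usp1 in 9 clusters, it was above 0 for Usp16 in 7, for Fam205c and Spata1 in 6 each, for Ghitm and Cfl2 in 3 each and for Skp2 in 1. Tpt1 aside, an interval below 0 was seen for Skp2 in Sd7 and for Cfl2 in Sc2 and Sd8, in clusters where 9.1%, 23.2% and 7.69% of genes had one.

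**Figure D2:**
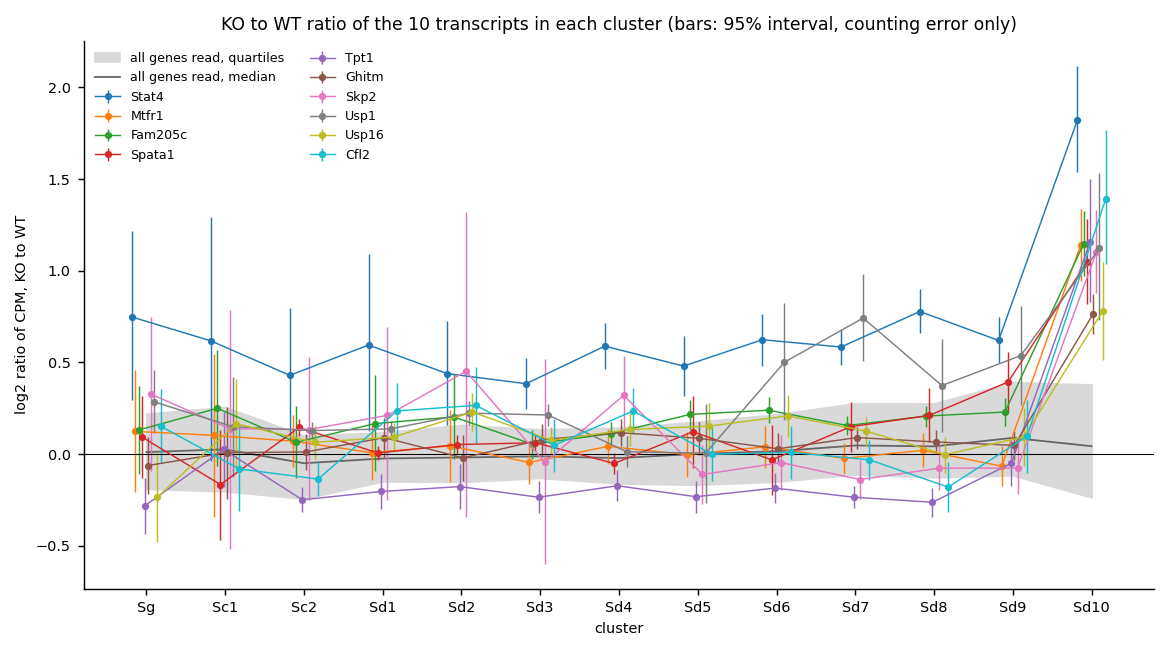
Log2 ratio of KO to WT for each of the 10 transcripts in each cluster, with 95% intervals for counting error, over the quartiles (grey band) and median (grey line) of all genes read. Up to Sd9 most members lie around the band, Stat4 above it, and in Sd10 the 10 members sit between 0.76 and 1.82, the contrast that chose them.

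From Sd9 to Sd10 the 2 libraries differed in course. In WT the log2 change had an interval below 0 for 10 of 10 members, beside 24.6% of genes, with a median of −1.07 beside −0.25 over all genes. The level fell by 2.37 on the log2 scale for Tpt1, by 1.88 for Fam205c, by 1.78 for Stat4, by 1.26 for Cfl2 and by 1.26 for Mtfr1. In KO the interval was below 0 for 4 members, beside 30.4% of genes, namely Tpt1 (−1.16), Fam205c (−0.96), Stat4 (−0.58) and Usp16 (−0.19). It was above 0 for 3, Ghitm (0.30), Skp2 (0.29) and Spata1 (0.28), beside 13.9% of genes, and it included 0 for Mtfr1, Usp1 and Cfl2. The median of the members in KO was −0.01, beside −0.37 over all genes. These changes use the same Sd10 levels as the choice of the set and are given as a description.

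In single cells the difference was one of how many cells held a UMI and, for some members, of how many UMIs such a cell held. Stat4 had a UMI in 26.1% of Sd10 cells in WT (exact binomial 95% interval 19.9 to 33.1) and in 65.5% (59.6 to 71.0) in KO. For Skp2 the shares were 50.5% (43.1 to 58.0) and 85.6% (80.9 to 89.5), and for Mtfr1 53.3% (45.8 to 60.6) and 88.1% (83.7 to 91.7). Cfl2 was seen in 27.2% and 61.5% of cells, Usp1 in 23.4% and 48.6%, and Tpt1 in 23.9% and 51.4%. Fam205c was seen in 54.9% and 80.9%, Spata1 in 58.7% and 81.3%, and Usp16 in 49.5% and 68.3%. Ghitm was near saturation, in 91.3% and 97.1% of cells, and differed by its 5.71 UMIs per positive cell in WT and 8.50 in KO.

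As a background level, Stat4 had a UMI in 6.82% of WT and 11.5% of KO cells in Sd1, and Skp2 in 4.36% and 7.64% in Sd2, clusters of somewhat deeper cells (median of 6603 to 8647 UMIs). Usp1 in Sd10 WT cells was at a share like the 24.6% of Sd7 in WT, and Spata1 like the 56.7% of Sd7 in WT, their low stretches. With each cell thinned to 3000 UMIs, which left out no cell, the shares were 13.6% and 48.6% for Stat4, 35.3% and 67.6% for Skp2, and 12.5% and 28.8% for Usp1 in WT and KO. In Sd9 the shares of Mtfr1 (92.2% and 90.3%), Ghitm (98.8% and 98.6%) and Cfl2 (55.6% and 57.0%) had overlapping intervals in WT and KO, whereas that of Stat4 was 73.4% in WT and 87.8% in KO.

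**Figure D3:**
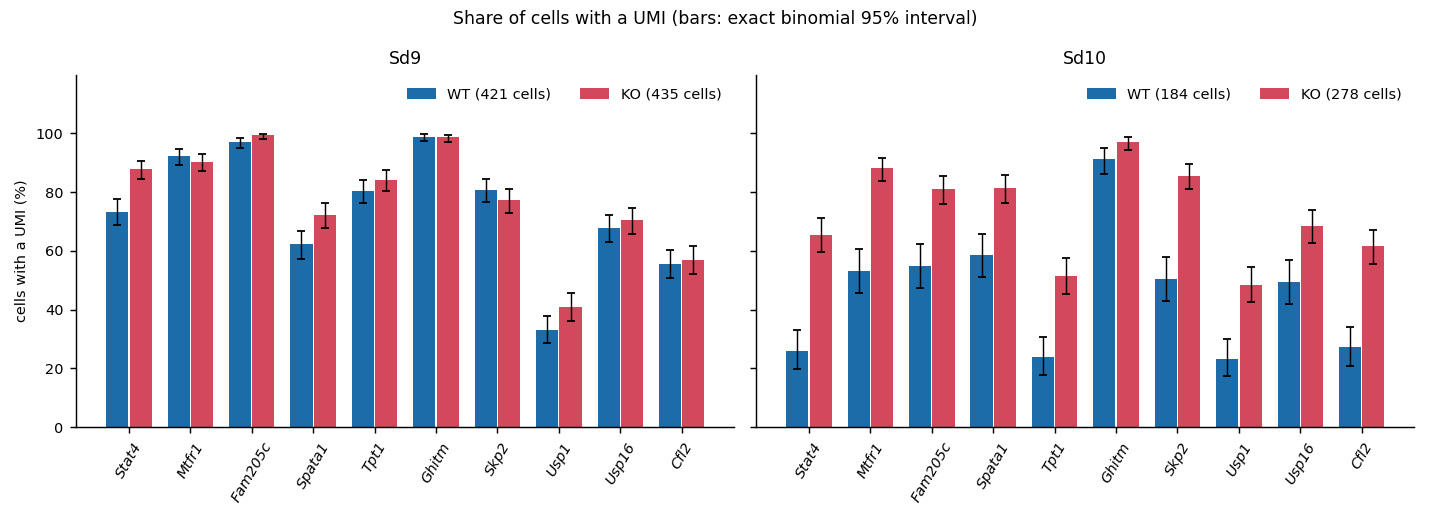
Share of cells with at least 1 UMI of each transcript (%, axis from 0) in Sd9 and Sd10, WT in blue and KO in red, with exact binomial 95% intervals. In Sd9 the bars of a pair are close for most members, while in Sd10 each KO bar is above the WT bar, as for Skp2 with 85.6% against 50.5%.

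Counted together, a WT cell of Sd10 held UMIs of a median of 4 of the 10 transcripts and a KO cell of 7, while in Sd9 the median was 8 in both. There were 66 of 184 WT cells in Sd10 (35.9%, interval 28.9 to 43.3) with 3 or fewer of the transcripts, and 4 of 278 KO cells (1.44%, 0.393 to 3.64). Cells in which none of the 10 was seen numbered 3 in WT and 0 of 278 in KO, and with 3 counts as the limit for a count of 0 the latter allows a share of up to 1.08%. All 10 were seen in 6 WT and 19 KO cells. After thinning to 3000 UMIs the mean number per cell was 3.09 in WT and 5.56 in KO.

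**Figure D4:**
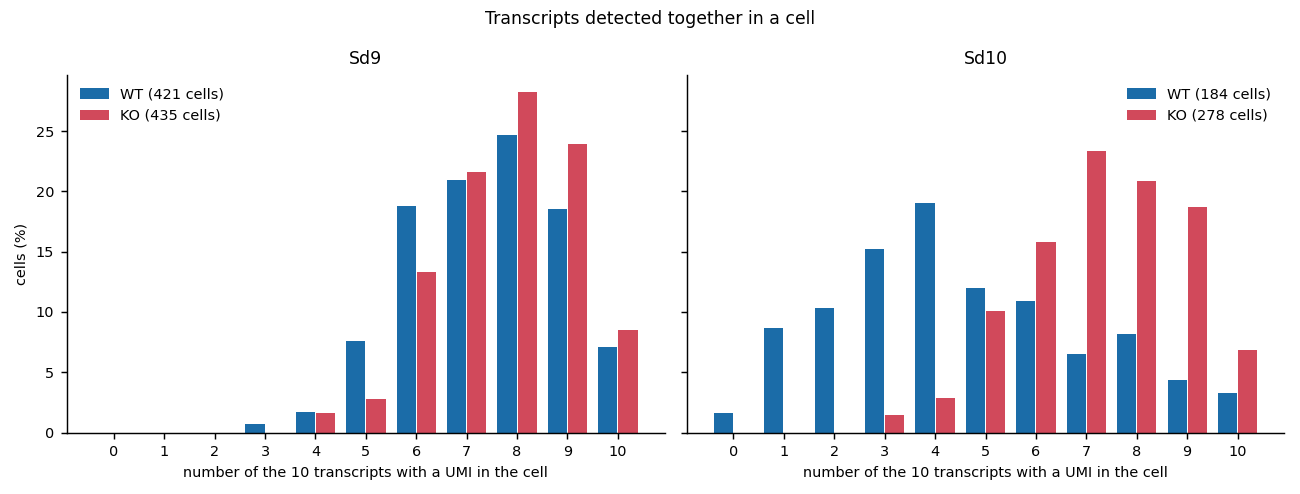
Distribution over cells of the number of the 10 transcripts with a UMI, as percent of the cells of Sd9 and of Sd10, WT in blue and KO in red. In Sd9 both libraries have a median of 8, and in Sd10 the WT cells spread down to 0 with a median of 4 while the KO cells stay around 7.

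The cells of Sd10 were next ordered by a stage score. It is the log2 of the UMIs of the 6 Sd10 markers over those of 7 markers of earlier spermatids, each plus 1. The 7 were Tnp1, Tnp2, Prm3, Tex37, Hmgb4, Spata19 and Cypt1. Each of these had a lower level in KO in Sd10, as for Tnp1 (2313 CPM in WT, 1580 in KO) and Prm3 (3143 and 2940). The score is thus not independent of the library. The median score was 3.26 in WT and 3.36 in KO. In 5 bins of equal cell number over both libraries, the 10 members were higher in KO in each bin. The interval was above 0 for 8, 7, 9, 10 and 10 members from the earliest bin to the latest, where 6.15%, 7.54%, 7.12%, 10.1% and 14.8% of genes had this. The median ratio of the members was 0.68 in the earliest bin and 2.69 in the latest, beside −0.01 and 0.15 over all genes read.

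Within WT, the latest bin had less of 10 of 10 members than the earliest, with intervals below 0, beside 33.3% of genes. Within KO this was so for 5 members, Stat4, Tpt1, Fam205c, Usp16 and Mtfr1, beside 26.1% of genes. Stat4 went from 236 to 9.64 CPM in WT and from 500 to 61.2 in KO, and Tpt1 from 196 to 4.82 in WT, where the last value is 1 UMI, and from 312 to 43.7 in KO. Spata1, Skp2 and Usp1 had an interval above 0 in KO, 3 of 10 members beside 12.4% of genes. Skp2 went from 239 to 43.4 CPM in WT and from 344 to 434 in KO, and Spata1 from 205 to 62.7 in WT and from 295 to 388 in KO. Ghitm (1319 to 1259 CPM) and Cfl2 (143 to 186 CPM) had intervals that included 0 in KO. The bins divide the same Sd10 cells that chose the set, so the changes within a library are also given as a description.

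Other measures moved along the bins as well. The WT cells of the earliest bin had a median of 8981 UMIs and the KO cells 5614, and those of the latest bin 4656 and 5110. The UMIs of ribosomal protein genes were 2.42% and 2.27% of all UMIs in the earliest bin and 2.01% and 1.59% in the latest, in WT and KO. Their part in the results was not tested.

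**Figure D5:**
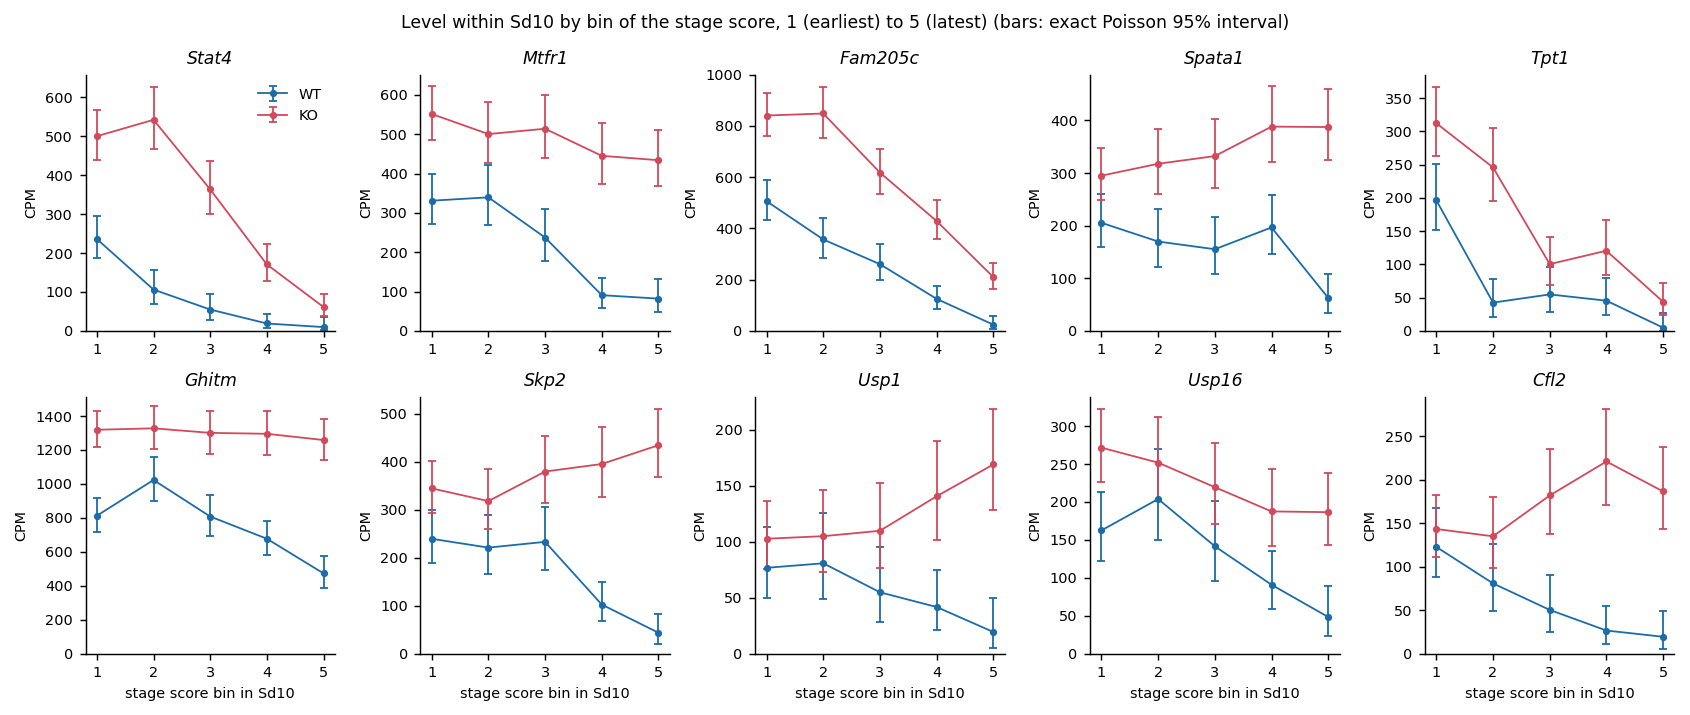
Level (CPM, linear axis from 0) of each transcript in 5 bins of the stage score within Sd10, from the earliest (1) to the latest (5), WT in blue and KO in red, with exact Poisson 95% intervals. In WT the 10 lines end lower than they start, and in KO those of Stat4, Fam205c and Tpt1 fall steeply, that of Mtfr1 declines slightly, that of Ghitm runs nearly level, and those of Skp2, Usp1 and Spata1 end higher.

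Other genes of the members' pathways were read in Sd10 where their symbol had 1 row. The same 1.5-fold rule with an interval above 0, met by 5.88% of genes, was used (3.32% met it in the other direction), and a list is set beside the median of 0.04 over all genes. Of 13 other ubiquitin-specific proteases, taken by symbol without antisense and other non-protease genes of like name (left out after values were seen), 2 were higher in KO and 0 lower, with a median of 0.23. These were Usp7 (24.7 CPM in WT, 43.1 in KO), a deubiquitinase of p53 and MDM2, and Usp12 (47.9 and 74.9 CPM), while Usp50 had 32.7 and 29.5 CPM. Wdr48, the activating partner of USP1, had 18.4 CPM in WT and 31.2 in KO, with a log2 ratio of 0.75 and an interval of 0.04 to 1.54. It was 1 of 2 genes read on the list of USP1 partners.

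Of 6 genes read around the SCF-Skp2 ligase, the germ cell cyclin Ccna1 was higher in KO, with 11.2 CPM in WT and 23.8 in KO, and 0 were lower. Ccna1 is also a marker of Sd1, and these levels, from 14 and 42 UMIs, are 2.24% and 4.96% of its level there. Skp1a, the adaptor between SKP2 and the cullin, had a log2 ratio of 0.32 with an interval of −0.42 to 1.09. Of 4 genes read in the JAK-STAT pathway, Pias2, a SUMO ligase that binds STAT proteins, was higher in KO with 28.7 CPM in WT and 69.2 in KO, while Socs7 had 670 and 619 CPM.

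Of 11 genes of mitochondrial shape 1 was higher in KO, Dnm1l, the dynamin that divides mitochondria, with 73.4 CPM in WT and 137 in KO. The receptor that recruits it, Mff, had 233 and 199 CPM, and the list had a median of −0.02. None of 6 genes of cofilin and actin turnover was called in either direction, among them Tesk1, a kinase of cofilin in the testis, with 185 and 176 CPM. Of 18 other genes of the Spata and Fam205 names 0 were called higher and 1 lower, Spata31d1b, with a median of −0.05. Spata7 had 362 CPM in WT and 288 in KO, and Spata19 237 and 181. In the other direction, Spata31 had 15.2 and 23.3 CPM and Spata16 27.1 and 34.0, with intervals of the ratio that included 0.

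A further 5 genes had been displayed together with the set in a comparison made on these same cells. Of these 4 met the rule, and they are not independent of it. They were Cylc2, a protein of the sperm head calyx, with 145 CPM in WT and 343 in KO, the chaperone genes Dnajb3 (1115 and 1779 CPM) and Dnajb4, and Bag5 (228 and 346 CPM). The RNA-binding protein gene Fxr1 had 3601 and 4611 CPM, a log2 ratio of 0.36 with an interval of 0.30 to 0.41, below the 1.5-fold limit. Of the members, Ghitm (0.76) and Usp16 (0.78) were the nearest to that limit.

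The genes with a course most like that of a member over the 13 WT clusters, by Pearson r of log2(CPM + 1) among 4190 genes, were set beside it. H2afb1 was most like Skp2 (r = 0.998 in WT and 0.975 in KO) and had 1307 CPM in WT and 1123 in KO in Sd10. Spata21 was most like Stat4 (r = 0.99 and 0.96), with 149 and 144 CPM. 1700020N15Rik was most like Ghitm (r = 0.98 and 0.98), with 287 and 264 CPM, and Mlf1 most like Mtfr1 (r = 0.96 and 0.90), with 1554 and 1612 CPM. For these 4 genes the KO to WT ratio in Sd10 was between −0.22 and 0.05. The members were chosen for a high ratio in Sd10 and these genes were not, so their lower ratios are a description only. The nearest genes of the other members, given next, include higher ratios.

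Tex30 was most like Cfl2 (r = 0.94 and 0.87) and had 31.9 CPM in WT and 70.4 in KO, a log2 ratio of 1.13. Tbpl1 was most like Usp1 (r = 0.997 and 0.990), with 14.4 and 21.6 CPM and a ratio of 0.57, and Gkap1 came next (r = 0.99 and 0.98), with 91.0 and 132 CPM and a ratio of 0.54. 4930442L01Rik was most like Fam205c (r = 0.996 and 0.993), with 55.1 and 91.9 CPM and a ratio of 0.74. Spef2 was most like Spata1 (r = 0.98 and 0.94), with a ratio of 0.24. Mcl1 was most like Tpt1 (r = 0.93 and 0.95), with 32.7 and 31.2 CPM. Zdhhc4 was most like Usp16, at r = 0.89 in WT and 0.74 in KO, the loosest match of the 10 members, with a ratio of 0.34. Genes of rank 2 and 3 in likeness varied. For Fam205c they had ratios of −0.08 (Dnajc5b) and −0.37 (1700013G24Rik), and for Cfl2 −0.35 (Samd4b) and −0.14 (Cep295). For Mtfr1 they had −0.35 (Zfand3) and 0.66 (4930428D20Rik). Those of Tpt1 had 0.63 (Coa5) and 0.87 (Suds3), and those of Spata1 0.67 (Ccdc146) and 0.79 (4930444P10Rik), at low levels. The Sd10 level is 1 of the 13 points behind each r.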

How the data were processed

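Testis cells of 1 WT and 1 KO pool were captured with the GEXSCOPE kit. Per the study's methods and the submitters' processing notes, the authors checked reads with FastQC 0.11.7, trimmed them with fastp 1, aligned them to mm10 with STAR 2.5.3a, counted them with featureCounts 1.6.2 and filtered, integrated and clustered the cells in Seurat 3.2.3. The deposited matrix holds raw UMI counts per gene row and cell, without normalization. The authors' cell table gives the library, cluster and UMI count of each cell and the percent of its mitochondrial UMIs, and a deposited score, the UMI total after sctransform, which was not used. The limits of the cell filter and any treatment of doublets by the authors are not given in the sources used here. No cell was removed and no doublet caller was run here.

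The matrix has 26758 rows and the list of symbols 25065 lines. Anchors were 30 rows, 1 for each mitochondrial symbol, whose sum gave the mitochondrial UMIs of the cell table in 12408 of 12408 cells. Between anchors, a row could lack a symbol if under 5 cells had a UMI of it. None of 31 intervals contradicted this. The 5476 symbols with 1 possible row held 87.1% of WT and 86.7% of KO UMIs.

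UMIs were summed per library and cluster. Genes with at least 10 UMIs over both libraries, or over both clusters or bins compared, were read, and ratios have a prior of 1 UMI. Intervals are exact Poisson, Clopper-Pearson or conditional binomial at 95%, for counting error only. With 1 library per genotype no test was made. The ratio script was tested on simulated data. The members, lists and rules were chosen with earlier results of these data known. Named are the members, Tex13a, the late stage markers and those of the stage score. The naming rule also held the 2 highest and 2 lowest genes of each list in Sd10 with at least 50 UMIs. Not all of these list genes are printed. Also named are the 3 genes most like each member in course with at least 500 WT UMIs. Of these the nearest and Gkap1 are printed, and others were added after their values were seen. Of list members outside this, those called were named after their values were seen. Cell thinning drew 3000 UMIs per cell. Sequences are from GENCODE vM21 on GRCm38, matched with blastn 2.17.0 for copies. Python 3.11.15, numpy 2.4.6, scipy 1.17.1, pandas 2.3.3 and matplotlib 3.10.9 were used. Alternatives were another prior, centring, the mean of single-cell CPM, totals without mitochondrial genes, thinned cells, the 5% of cells with most UMIs left out, stage-matched bins, other minimums and stricter row matching.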

Additional observations from a re-analysis of the deposited data

Results flagged for a closer look

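For 3 of the 10 transcripts the KO to WT ratio had an interval below 0 in an earlier cluster and above 0 in Sd10. The ratio thus lay on opposite sides of 0 in different clusters of the same libraries. Over the 12 earlier clusters 11.2% of all pairs of gene and cluster had an interval below 0. How many of all genes share the pattern of these transcripts was not counted. The lowest log2 ratio of Tpt1 before Sd10 was −0.28, in Sg, against 1.16 in Sd10. That of Skp2 was −0.14, in Sd7, against 1.10. That of Cfl2 was −0.18, in Sd8, against 1.39. With 1 library per genotype the difference was not tested, and the Sd10 values are the ones that chose the transcripts.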

How the results depend on the processing

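No ratio with an interval apart from 0 changed sign under an alternative. The Sd9 ratio of Ghitm, whose interval includes 0, went from 0.05 to −0.04 when centred on the median of all genes. All members read stayed at least 1.5-fold higher in KO in Sd10 under every alternative run, 10 of 10 or, where any row may be unnamed, 8 of 8, since Stat4 and Skp2 then have more than 1 possible row. The median ratio of the members in Sd10 moved from 1.13 to 1.34 when cells were thinned to 3000 UMIs. When cells were matched on the stage score, whose early markers differ between the libraries, the median ratio was 1.19. Without cells that held a UMI of a somatic marker, an alternative chosen after seeing the data, it was 1.17, with 18 WT and 27 KO cells left out of Sd10. The share of all genes at least 1.5-fold higher in KO was 5.88% in Sd10, 7.66% with at least 50 UMIs and 4.61% with at least 1 UMI. In Sd9 it was 7.59%, 8.71% and 6.47%. Of 88 values of single members in Sd10, 81 stayed within the counting interval and 7 moved, all upwards, over a range of 0.72 to 2.39, the highest being Stat4 in thinned cells. Of 78 in Sd9, 76 stayed and 2 moved. The cause was not tested. No paired analysis was possible because there is 1 library per genotype and the labels give no replicate numbers, and no replicate could be left out. Depth limits the latest bins of Sd10, where Tpt1 had 1 WT UMI and Stat4 2.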
